A study of Mus musculus with 14 samples.

Results

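The peak lists of 7 methylated-DNA libraries were compared here, those of 4 wild-type induced pluripotent stem (iPS) clones and those of 3 embryonic stem (ES) lines, out of 14 libraries in the series. Membership followed the sample labels: the clones 967B2, 967B4, 979B1 and 979B3 carry the genotype Aid+/+, and RF8, MG1.19 and B6 ES are the ES lines. The clones, male and at passage 6, carried the Nanog-GFP reporter and were mixed in strain, with parts from 129S4, DBA and C57BL6. RF8 (strain 129SV, passage 19) and MG1.19 (129Ola) were male, B6 ES was C57BL6 with no sex or passage given, and no Aid genotype or reporter was given for the ES lines. Clones and ES lines were kept on feeder cells in serum medium with LIF, and the medium of the clones also held puromycin. Both were then passaged on gelatin to exclude feeder cells. Per the methods, the clones had been derived from MEFs (mouse embryonic fibroblasts) with retroviruses that carried cDNAs of the reprogramming factors. By their names, 967B2 and 967B4 came from 1 derivation experiment and 979B1 and 979B3 from another, and the tests and SDs here treat them as 4 samples. Libraries of 3 Aid+/+ Nanog-GFP MEF cultures (male, passage 3, the same mix of strains as the clones) served to describe the state of each region in the cell type of origin. Strain, reporter and puromycin thus differed between the clones and the ES lines and cannot be told apart from the cell type. All values are for the autosomes.

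DNA methylation in mammals is placed mainly on the cytosine of CpG dinucleotides. During reprogramming the promoters of pluripotency genes lose methylation and many genes of the starting fibroblasts gain it, while retroviral sequences are themselves methylated in pluripotent cells. A methyl-CpG binding domain (MBD) protein retains fragments that hold several methylated CpGs, so a peak is read here as a sign of methylated DNA. Single peaks can still lie over DNA with few or no CpGs, where this reading is uncertain. The lack of a peak does not show that a stretch is unmethylated.

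Regions that carried a clear difference are shown by 200 bases from within each shared stretch. The bases are from the plus strand of NCBI build 37, 5′ to 3′, with each CpG in capitals. The first 3 lie in coding exons of factor genes and had peaks in the 4 clones and in no ES line. Sox2, chr3:34549815-34550014, held 18 CpGs, Pou5f1, chr17:35643142-35643341, held 7, and Klf4, chr4:55543311-55543510, held 14. The Sox2 and Pou5f1 windows each held the summits of the 4 clones. That of Klf4 lay between the summits of the clones and held none of them.
Sox2: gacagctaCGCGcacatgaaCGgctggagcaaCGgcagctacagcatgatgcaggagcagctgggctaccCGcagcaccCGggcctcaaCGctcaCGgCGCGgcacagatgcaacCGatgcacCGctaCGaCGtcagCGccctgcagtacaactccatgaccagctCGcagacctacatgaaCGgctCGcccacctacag
Pou5f1: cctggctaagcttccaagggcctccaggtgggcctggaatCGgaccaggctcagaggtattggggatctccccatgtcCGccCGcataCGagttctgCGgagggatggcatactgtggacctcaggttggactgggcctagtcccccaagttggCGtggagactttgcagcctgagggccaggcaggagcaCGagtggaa
Klf4: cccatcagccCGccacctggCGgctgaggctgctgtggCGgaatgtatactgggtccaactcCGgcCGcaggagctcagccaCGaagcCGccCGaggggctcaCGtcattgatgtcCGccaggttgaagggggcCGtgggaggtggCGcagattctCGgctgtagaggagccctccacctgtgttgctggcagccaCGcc

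The next sequences are those of 2 iPS regions between genes that ranked among the first 6 by peak strength, together with 2 regions that had peaks in the 3 ES lines and in no clone. The window at chr6:47611113-47611312 (nearest coding gene Ezh2) held 12 CpGs in DNA of 43.0% GC, and that at chr9:86836188-86836387 (nearest coding gene Snap91) held 9 CpGs at 60.5% GC. Of the ES regions, chr9:103374234-103374433, in the gene Bfsp2, held 10 CpGs, and chr3:145640961-145641160, nearest to Syde2, held 11.
Ezh2 side: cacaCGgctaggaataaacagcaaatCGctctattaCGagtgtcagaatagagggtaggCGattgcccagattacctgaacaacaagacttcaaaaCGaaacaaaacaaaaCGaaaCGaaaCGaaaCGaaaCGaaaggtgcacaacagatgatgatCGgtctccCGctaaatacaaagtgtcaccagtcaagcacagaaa
Snap91 side: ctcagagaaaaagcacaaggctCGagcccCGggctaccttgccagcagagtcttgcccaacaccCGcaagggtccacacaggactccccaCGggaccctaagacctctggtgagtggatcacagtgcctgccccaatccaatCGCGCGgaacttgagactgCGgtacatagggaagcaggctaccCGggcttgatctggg
Bfsp2: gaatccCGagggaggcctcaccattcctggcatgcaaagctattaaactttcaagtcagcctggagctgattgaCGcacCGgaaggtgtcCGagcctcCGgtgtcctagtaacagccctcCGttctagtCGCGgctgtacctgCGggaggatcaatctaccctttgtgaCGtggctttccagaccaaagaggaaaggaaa
Syde2 side: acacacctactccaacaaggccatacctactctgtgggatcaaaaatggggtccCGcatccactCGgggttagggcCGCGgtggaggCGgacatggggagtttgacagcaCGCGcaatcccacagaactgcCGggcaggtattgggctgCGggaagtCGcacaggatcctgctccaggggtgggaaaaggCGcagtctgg

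The libraries were not of equal yield. After removal of repeated tags the clones kept between 9633649 and 15916182 tags and the ES lines between 10224266 and 15499529. Tags lost as repeats made up 65.0% to 73.0% in 967B4, 979B1 and 979B3, against 44.0% in 967B2 and 45.0% to 49.0% in the ES lines. The headers of those 3 clones also carry a name prefix that those of 967B2 and the ES lines lack, of which the meaning is not given in the sources used here, and the ES lists were made with MACS 1.4.0rc2 where the iPS lists were made with 1.4.1. Version and group thus cannot be told apart, and the part of the version and of the repeated tags in the results was not tested. The clone 967B2 stood apart from the other clones by peaks in CpG-rich promoters, and MG1.19 stood apart from the other ES lines by few peaks, so results that rest on them are also given without them.

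As a check of the labels, the promoters of 7 genes known to be methylated in fibroblasts were read. Nanog had a promoter peak in MEF 1 and MEF 2 and in no clone and no ES line. Dppa5a had one in MEF 1, Tdgf1 in MEF 2, and Zfp42, Epcam and Cdh1 in no sample. The seventh, Pou5f1, had its only peaks in the clones and is described with the factor genes. Of 6 fibroblast genes known to be methylated in pluripotent cells, Col1a1, the alpha 1 chain of type I collagen, had promoter peaks in the 4 clones and in B6 ES and in no MEF. Tbx15 had peaks in 3 clones, B6 ES and 2 MEFs, and Thy1, Col1a2, Twist2 and Prrx1 in no sample. RF8, MG1.19 and MEF 3 had a peak at none of the 13 promoters, so these markers did not tell them apart.

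The number of methylated regions overlapped between the clones and the ES lines. The clone 967B2 had 74815 autosomal peaks, 967B4 had 83991, 979B1 had 95815 and 979B3 had 106408. Among the ES lines RF8 had 56045 peaks, MG1.19 had 31650 and B6 ES had 101951. B6 ES lay within the range of the clones and RF8 and MG1.19 below it. The mean was 90257 ± 13778 peaks in the clones (SD, n = 4) and 63215 ± 35695 in the ES lines (SD, n = 3), which was not a detectable difference (exact permutation test over the 35 assignments, two-sided, p = 0.229, adjusted over 4 measures 0.286).

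The length under peaks and their strength did not pass the test either. Peaks covered 62.7 ± 12.9 Mb in the clones (SD, n = 4) and 44.2 ± 26.5 Mb in the ES lines (SD, n = 3; exact permutation p = 0.286, adjusted 0.286). Between 47.2% and 59.6% of the filtered tags of a clone lay in autosomal peaks, against 30.7% in RF8, 15.4% in MG1.19 and 52.2% in B6 ES (exact permutation p = 0.0571, adjusted 0.171). The median fold enrichment, that of a peak over the local background as MACS gave it, was 15.6 ± 0.651 in the clones (SD, n = 4) and 13.9 ± 1.39 in the ES lines (SD, n = 3; exact permutation p = 0.0857, adjusted 0.171). The smallest p this design allows is 0.0286.

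**Figure D1:**
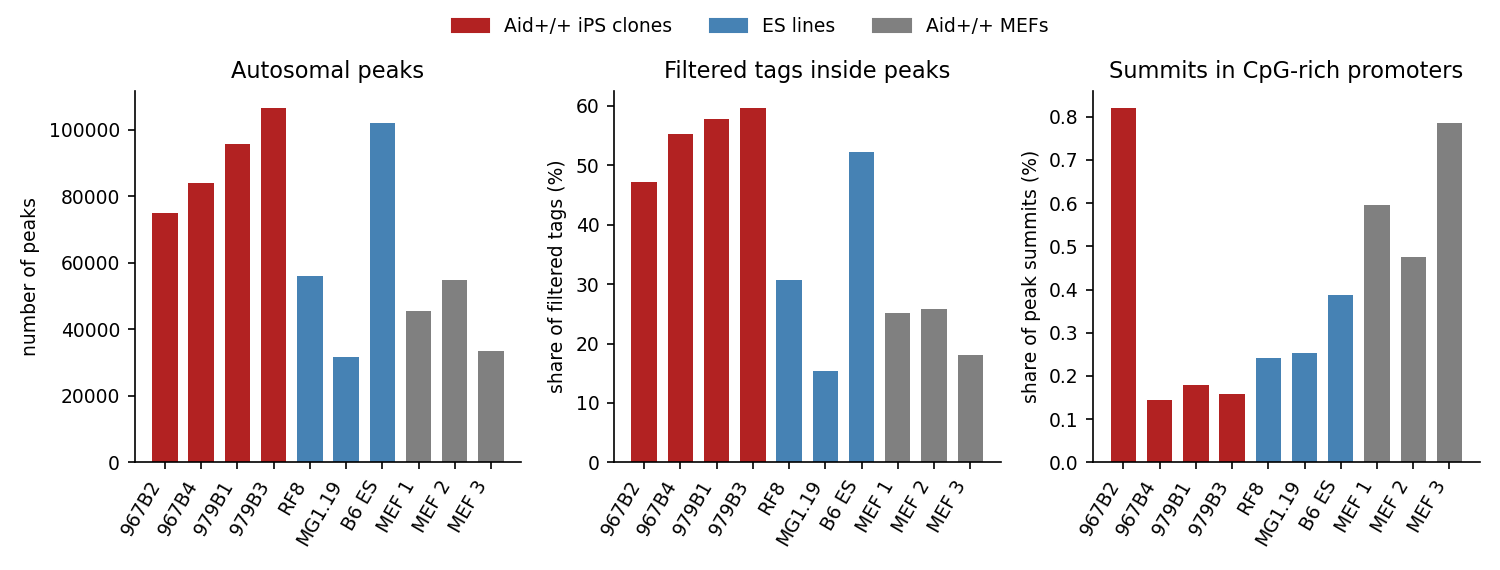
Number of autosomal peaks (left), share of filtered tags inside those peaks in percent (middle) and share of peak summits in CpG-rich promoters in percent (right), with 1 bar a sample for the 4 Aid+/+ iPS clones (red), 3 ES lines (blue) and 3 Aid+/+ MEFs (grey). B6 ES falls among the clones in the left and middle panels, and 967B2 stands above the other clones in the right panel with 0.819%.

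The position of the peaks relative to genes showed no detectable difference between the groups. The smallest p possible was again 0.0286 before adjustment, so 1 separated measure alone would not have been detected. Summits fell in promoters, taken from 1000 bp before to 500 bp after a gene start, for 1.87 ± 0.493% of peaks in the clones (SD, n = 4) and 1.71 ± 0.442% in the ES lines (SD, n = 3). Exons outside promoters held 20.2 ± 1.09% and 18.9 ± 3.47%, introns 32.1 ± 1.73% and 30.9 ± 1.60%, and intergenic DNA 45.8 ± 0.600% and 48.5 ± 5.35%, in the same order. The median GC content of the peaks was 49.5 ± 0.636% and 49.5 ± 0.296%. Exact permutation tests gave p between 0.371 and 1 for the 7 measures of position and composition, and adjusted p between 0.880 and 1.

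Within the clones, 967B2 differed in which promoters carried peaks. CpG-rich promoters (a 500 bp window with an observed over expected CpG ratio above 0.75 and over 55% GC) held 0.819% of the summits of 967B2, 0.144% of 967B4, 0.180% of 979B1 and 0.158% of 979B3. The ES lines lay between these values, at 0.241% in RF8, 0.253% in MG1.19 and 0.387% in B6 ES, and the MEFs between 0.475% and 0.785%. Without 967B2 the difference of the group means (ES minus iPS) turned from -0.0315 to 0.133 percentage points.

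Regions shared by all samples of a group were then compared, as in the methods of the study. A stretch under a peak in each of the 4 clones was called an iPS DMR (differentially methylated region) where no ES line had an overlapping peak, and a CMR (commonly methylated region) where the 3 ES lines each had one. ES DMRs were defined the other way round. The clones shared 61635 stretches, of which 1187 were iPS DMRs (1.93%) and 24419 were CMRs. The ES lines shared 25781 stretches, of which 48 were ES DMRs (0.186%).

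Most of the remaining shared iPS stretches were missing from RF8, MG1.19 or both. B6 ES lacked a peak at 1842 of the 61635 stretches (2.99%), RF8 at 19515 (31.7%) and MG1.19 at 35590 (57.7%). Stretches with a peak in B6 ES alone among the ES lines numbered 16896, and those with a peak in RF8 and B6 ES but not in MG1.19 numbered 17122. The number of iPS DMRs therefore rested on B6 ES: without it 18083 were called, and with it as the only ES line 1842. Leaving out the clone 967B2 gave 4690. ES DMRs rose to 587 without MG1.19, to 298 without B6 ES and to 137 without 967B2.

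iPS DMRs were weak peaks as a set. Their median fold enrichment over the clones was 12.7, against 21.6 at CMRs, and the median tag number was 25.0 against 119.5. In 1025 of 1187 (86.4%) the weakest clone had a MACS score below 100, that is a p above 1e-10, as against 5.77% of CMRs. The lowest score among the 1071 iPS DMRs of at least 100 bp without any ES peak in the whole merged region was 50.0, at the limit of p = 1e-05 that the authors set, and the highest was 711. Among shared iPS stretches with a score of 50 to 75 in the weakest clone 9.18% were iPS DMRs, and among those with a score over 300 it was 0.0377%, or 8 of 21198. With a p of at most 1e-10 asked of the clones, 162 iPS DMRs remained in number.

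iPS DMRs were close to CMRs in GC content and shorter, at a median of 377 bp against 592 bp. Their median GC content was 50.8% and their median CpG density 3.11 per 100 bp, against 50.2% and 3.56 at CMRs. By their midpoints 15 lay in promoters, 177 (14.9%) in exons, 392 in introns and 603 (50.8%) between genes. CMRs had 15.5% in exons and 56.3% between genes. Shared iPS stretches with a peak in 1 or 2 ES lines differed more, with 23.2% in exons and 41.7% between genes. iPS DMRs made up between 1.28% (chromosome 19) and 2.43% (chromosome 6) of the shared iPS stretches of a chromosome. Of the 1187, 99 lay within 100 kb of the iPS DMR before it.

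The reprogramming factor genes led this list. Ranked by the peak of the weakest clone, the iPS DMRs at Myc, Sox2, Pou5f1 and Klf4 stood at ranks 1, 2, 3 and 6 of 1071, and none overlapped a MEF peak. Pou5f1 (Oct3/4), Sox2 and Klf4 are transcription factors of the pluripotency network, and Myc drives growth and proliferation. They were selected here by their peak pattern, so these values describe the pattern and do not test it.

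The region of Myc, chr15:61818969-61819934, covered the coding exon 3 of the merged annotation. Its fold enrichment was 15.3 in 967B2, 10.7 in 967B4, 12.6 in 979B1 and 10.7 in 979B3, a mean of 12.3 ± 2.17 (SD, n = 4), on 486, 698, 362 and 169 tags. The 857 bp of this exon lay under a peak to the last base in every clone. A separate peak over the last exon was present in the 4 clones, in RF8 and B6 ES and in the 3 MEFs, and was not part of the difference.

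At Sox2, a gene of 1 exon, the region chr3:34549231-34550425 had a fold enrichment of 13.1 in 967B2, 13.3 in 967B4, 16.8 in 979B1 and 16.2 in 979B3 (14.8 ± 1.90, SD, n = 4). The tags numbered 1151, 857, 250 and 93 in the same order, so the clones differed more in tags than in fold enrichment. No ES line and no MEF had a peak within the gene.

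At Pou5f1 the region chr17:35642952-35643420 covered most of the first exon and began 30 bp before the gene start, so most of the promoter window upstream of the gene held no shared peak. All summits of these peaks lay within the first exon. The fold enrichment was 30.3 in 967B2, 24.0 in 967B4, 26.8 in 979B1 and 24.9 in 979B3, a mean of 26.5 ± 2.79 (SD, n = 4). In 967B4 alone a further peak spanned exons 4 and 5, the introns beside them and parts of exons 3 and 6. The second exon had no peak in any sample.

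At Klf4 the region chr4:55542974-55543959 lay over exon 3 and the end of the intron before it. The clones reached a fold enrichment of 8.26, 12.6, 10.8 and 10.4 in the order above (10.5 ± 1.76, SD, n = 4). A peak at the last exon was shared by the 4 clones and B6 ES, at 14.5 in B6 ES. All summits at the 4 genes fell in exons, 2 for each clone at Klf4 and Myc, 1 at Sox2, and 1 at Pou5f1 with a second in 967B4. Those in the last exons of Klf4 and Myc belong to peaks also found in B6 ES. Exons and introns held 3060 and 2275 bp at Klf4, 2717 and 2267 bp at Myc, and 2256 and 2484 bp at Pou5f1. Sox2 has no intron, so a summit within it could only fall in an exon. Whether summits favoured exons was not tested. The first 2 exons of Klf4 and the first exon of Myc, with 55, 16 and 36 CpGs, had no peak in any clone. Tags from integrated cDNA copies and from the endogenous exons cannot be told apart in these lists. Whether each clone received Myc with the other 3 factors is not given in the sources used here.

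**Figure D2:**
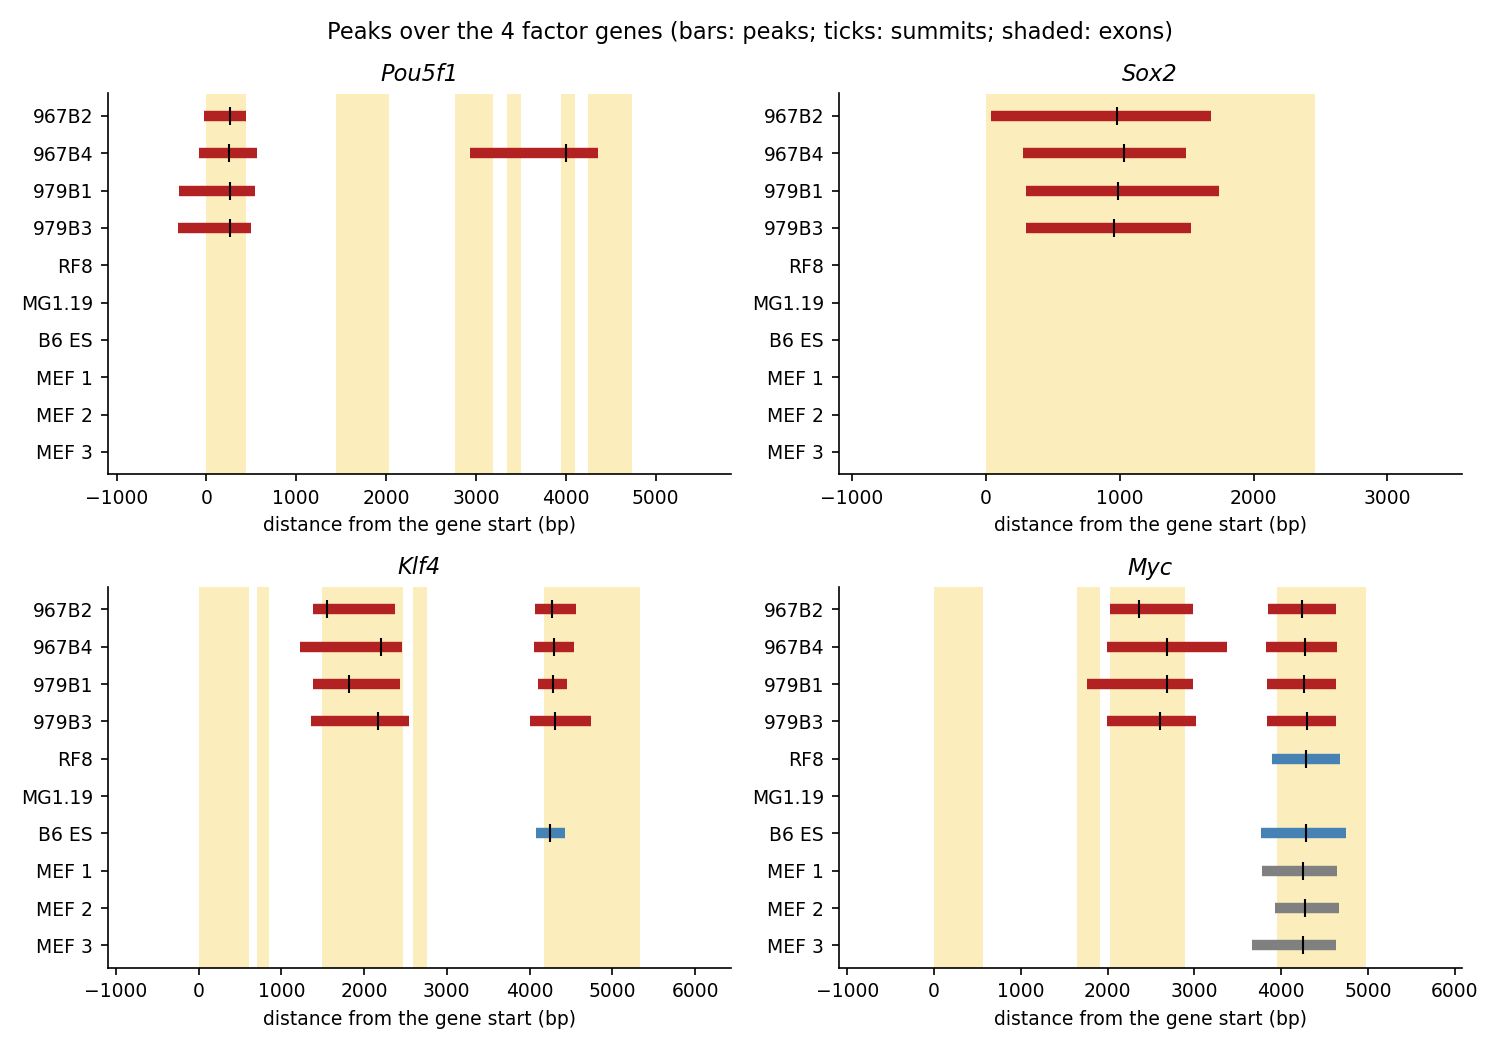
Peaks over Pou5f1, Sox2, Klf4 and Myc, with the distance from the gene start in bp on the x axis and 1 row a sample (4 Aid+/+ iPS clones in red, 3 ES lines in blue, 3 Aid+/+ MEFs in grey). Bars are peaks, black ticks their summits and shaded bands the exons, and each summit lies in an exon.

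The other regions among the first 10 lay mostly between genes. The region chr6:47610718-47611785, 65.4 kb from Ezh2, the catalytic subunit of the Polycomb repressive complex, had a fold enrichment of 11.0 ± 1.38 (SD, n = 4) on 347 to 501 tags. It also had a peak in MEF 1 (5.65) and MEF 2 (5.95). The region chr9:86836095-86836554, 60.6 kb from Snap91, a clathrin assembly protein of synapses, reached 30.8 ± 4.52 (SD, n = 4), the highest mean of the 10, with peaks of 9.91 and 8.21 in MEF 1 and MEF 2.

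The remaining 4 had no MEF peak. The region chr4:107287533-107287813 lay in an exon of Glis1, a zinc finger factor of the Krüppel-like class, and reached 22.0 ± 5.72 (SD, n = 4). That in an intron of Gm1305, chr1:181637089-181637497, reached 15.1 ± 1.55, that at chr9:12561235-12561594, 673 kb from Phxr4, 26.0 ± 5.70, and that at chr5:6556516-6556965, 212 kb from Zfp804b, 20.6 ± 5.99 (SD, n = 4 each). The clone 967B2 had the lowest fold enrichment of the 4 at 6 of the 10 regions, those of Sox2, Klf4 and Glis1 and those nearest to Ezh2, Snap91 and Phxr4, and the highest at Myc, Pou5f1 and Gm1305.

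ES DMRs were fewer and mixed. Their median CpG density was 1.75 per 100 bp, against 3.68 over all stretches shared by the ES lines. Of the 48, 19 lay in merged regions where a clone had a peak elsewhere, among them 14 stretches shorter than 50 bp. The other 29 held no peak of any clone. The strongest of these, chr9:103374136-103374499, in Bfsp2 (a lens filament protein) and at the start of the transcript Gm16252, had a fold enrichment of 27.1 in RF8, 31.8 in MG1.19 and 16.4 in B6 ES, and no MEF had a peak there.

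The second, chr3:145640879-145641387, 9.45 kb from Syde2, reached 31.8, 33.2 and 16.7 in the same order, and the MEFs 20.1, 15.1 and 8.09. The third, chr4:145426928-145427483, 31.2 kb from Gm13235, was the most CpG-dense of the 15 leading regions at 10.4 CpGs per 100 bp. It reached 10.3, 9.41 and 15.2 in the ES lines and 15.8, 14.8 and 15.7 in the MEFs. The intron of Sh3tc2 on chromosome 18, from 62127417 to 62127862, had 16.9 ± 0.744 (SD, n = 3) and no MEF peak. The fifth, 8.56 kb from Snrpe on chromosome 1, from 135491068 to 135491887, had no CpG in the shared stretch and a fold enrichment of 8.20 ± 0.278 (SD, n = 3).

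**Figure D3:**
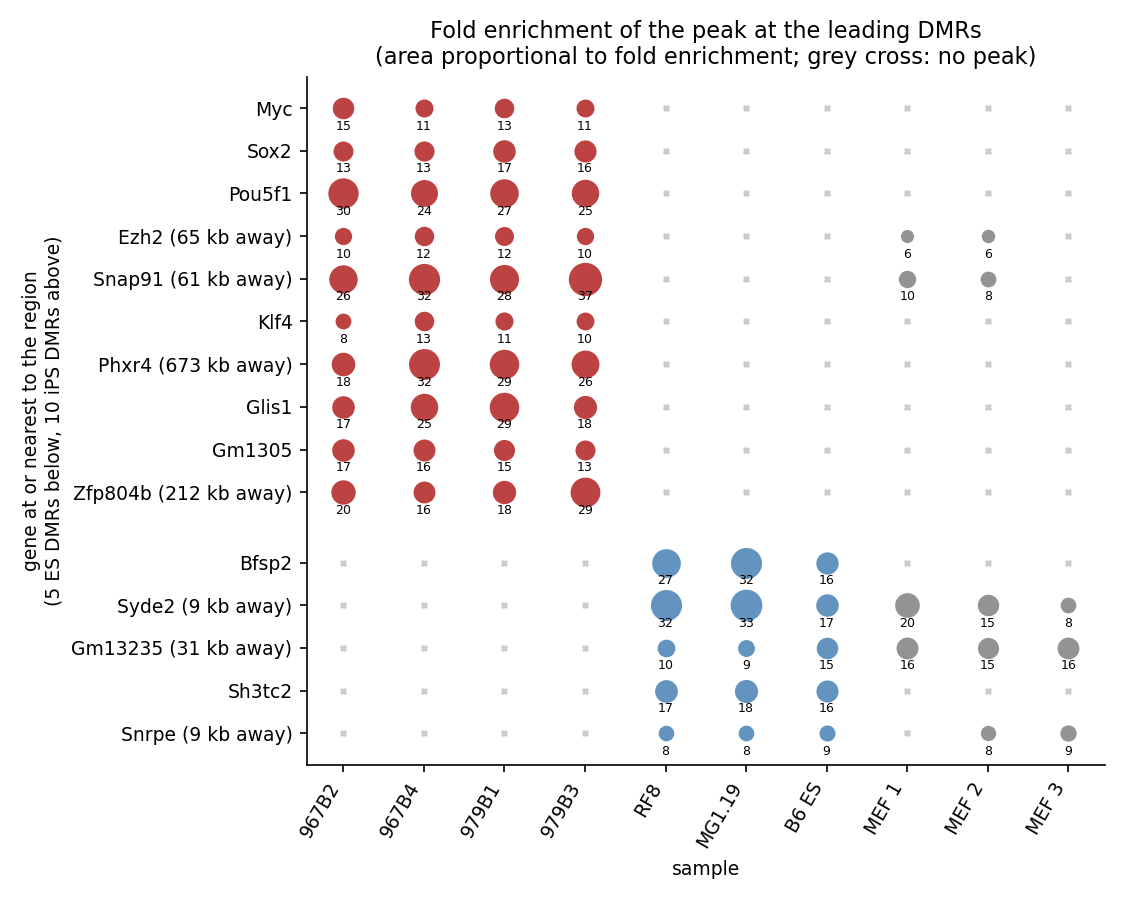
Fold enrichment of the peak at the 10 leading iPS DMRs (upper rows) and the 5 leading ES DMRs (lower rows) in each sample, with the circle area proportional to fold enrichment, the rounded value under it and a grey cross where the sample had no peak. The 4 factor genes have peaks in the clones alone, while 3 of the 5 ES regions also have MEF peaks, read over the whole merged region.

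The number of MEFs with a peak varied between the kinds of region, given here as a description. Of the 1187 iPS DMRs, 1032 (86.9%) had no peak in any MEF, 125 had one in 1 MEF, 18 in 2 and 12 (1.01%) in all 3. Of the 48 ES DMRs, 15 (31.2%) had no MEF peak and 15 had one in all 3. Of the 24419 CMRs, 8.03% had no MEF peak and 66.5% had one in all 3. Shared iPS stretches with a peak in 1 or 2 ES lines lay between, at 39.9% and 20.6%. The MEFs had 45572, 54953 and 33500 peaks, fewer than any clone.

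Peak strength moved with this state. Among stretches with a score of 50 to 75 in the weakest clone, 89.2% of 761 iPS DMRs and 36.9% of 636 CMRs had no MEF peak, and among those with a score of 100 to 150 it was 81.7% of 126 and 28.8% of 1640. At a score over 300 the shares were 3 of 8 iPS DMRs and 1.48% of 15506 CMRs. Among the iPS DMRs with a score of at least 100 in every clone, 76.5% had no MEF peak.

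Of the 12 iPS DMRs with a peak in the 3 MEFs, 7 were at least 100 bp long and in regions without any ES peak. The strongest 2 of these, named after their values were seen, were in an intron of Acacb, acetyl-CoA carboxylase of mitochondria, at chr5:114645129-114645848 (mean fold enrichment 9.58) and at chr5:16685260-16685696 between genes (27.5). Among the 29 ES DMRs free of any iPS peak, 8 had peaks in the 3 MEFs and 10 in none.

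**Figure D4:**
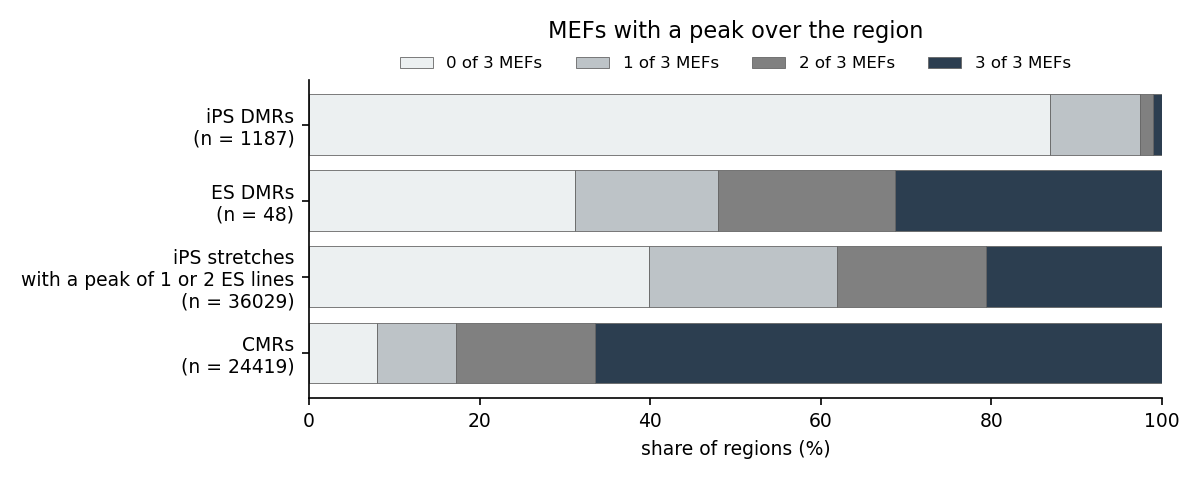
Share of regions in percent (x axis) with a peak in 0, 1, 2 or 3 of the 3 Aid+/+ MEFs (light to dark), for iPS DMRs, ES DMRs, shared iPS stretches with a peak in 1 or 2 ES lines, and CMRs. The part with no MEF peak is 86.9% at iPS DMRs and 8.03% at CMRs.

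Few promoters separated the groups. Of 25095 autosomal genes, 21 (0.0837%) had a promoter peak in the 4 clones and in no ES line, and 5 (0.0199%) in the 3 ES lines and in no clone, while 382 had one in all 7 samples. Of the 21, 16 had CpG-poor promoters, and 4 CpG-rich ones, Sox2 among them. Without B6 ES the first number was 483 and without 967B2 it was 74; without MG1.19 the second was 29.

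Pou5f1 and Sox2 were 2 of the 3 strongest, with their summits inside exons, and Sox2 was lost with a window of 500 bp before to 100 bp after the start. By pyrosequencing, the authors found the promoter of Pou5f1 hypomethylated in Aid+/+ iPS cells. The Pou5f1 peaks are thus not read here as methylation of the endogenous promoter, and their origin was not tested. The strongest by the weakest clone was Gm17180, a non-coding transcript, with a fold enrichment of 30.0, 24.5, 24.5 and 19.7 in the clones and 28.8 and 22.4 in MEF 1 and MEF 2. Each ES line had a peak in the body of Gm17180, at 11.9, 7.28 and 25.3, and the promoter difference was lost with a narrower and with a wider window. Rpl7a-ps10, a copy of a ribosomal protein gene, followed Sox2 and Pou5f1 at 15.0, 23.6, 22.5 and 23.9, with no MEF peak. Muc2, the main secreted mucin of the gut, had 5.99, 9.12, 12.7 and 10.5, and Nppa, the precursor of atrial natriuretic peptide, 12.5, 9.34, 13.5 and 9.90, also with no MEF peak at the promoter. In its gene body Muc2 had peaks in RF8 (10.06), B6 ES (26.48) and the 3 MEFs (33.55, 27.36 and 23.93). Muc2, Nppa and 15 others of the 21, that is all but Gm17180, Sox2, Pou5f1 and Rpl7a-ps10, were lost with a peak limit of 1e-10 and with equal peak numbers, and Rpl7a-ps10 with equal peak numbers. Nppa was also lost with the narrower window.

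The genes in ranks 7 to 10 were Gm5416, 2700038G22Rik, and the neighbours 9330159M07Rik and Gm17694, which shared the same peaks, with means between 11.98 and 18.6. Further down were Ccl19, a chemokine of lymph nodes (14.9 ± 5.76), Oit3 (10.7 ± 1.32) and Slc6a2, the noradrenaline transporter (10.6 ± 2.29; SD, n = 4 each). Oit3 and Slc6a2 also had gene body peaks in all 7 samples, the ES lines included. Of the 21, 17 had no MEF peak at the promoter. Genes with near-identical copies in the genome, such as Rpl7a-ps10, Erv3 and Olfr214, depend on how reads were placed, which is not given in the sources used here.

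On the ES side Adam1b, a sperm surface protease of the ADAM family, had promoter peaks of 28.1 in RF8, 22.6 in MG1.19 and 37.8 in B6 ES, and of 37.3, 33.5 and 32.5 in the MEFs. The clones had no peak in the window but each had a peak in the gene body, of 46.1, 33.7, 36.2 and 26.2, and the difference was lost with a narrower and with a wider window. The others were Gm16252 at the Bfsp2 region, Guca1b, a guanylate cyclase activator of photoreceptors (24.2, 9.46 and 12.2), H2-T3, a non-classical class I gene (12.1, 5.82 and 10.3), and Speer7-ps1 (8.20, 6.18 and 4.95), of a multicopy family. Of 11 alternatives, Speer7-ps1 was lost in 4, H2-T3 in 3, and Gm16252, Guca1b and Adam1b in 2 each. Of these 5 genes, H2-T3 alone had no peak in the gene body in any clone.

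Counted over whole gene bodies, 32 genes (0.128%) had a peak in the 4 clones and in no ES line, and 5 (0.0199%) the reverse. The first set held Pou5f1 and Sox2 and, of genes with known roles, Mapk3, the kinase ERK1 (mean of the highest peak 8.32), Ift88, a ciliary transport protein (10.2), Fdx1, a mitochondrial ferredoxin (11.1), and Idi1 of isoprenoid synthesis (9.38). None of the genes just named from the first set had a MEF peak in the gene body. Others of that set did, such as 2310014L17Rik in the 3 MEFs and Gm1110 in 1. The ES set was Birc3 (22.4), an inhibitor of apoptosis with peaks in 2 MEFs, Tnfrsf8 (16.0) and Snx27 (9.28) with peaks in 3, 4921504E06Rik and H2-T3. These gene body genes were named after their values were seen.

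Among the gene groups, germline genes had many methylated promoters in all samples but MG1.19. These genes, of meiosis and germ cell development, are silenced by promoter methylation in somatic cells. Of 30 on autosomes, 24 had a promoter peak in 967B2, 13 in 967B4, 19 in 979B1 and 22 in 979B3, against 14 in RF8, 2 in MG1.19 and 27 in B6 ES, and 24, 24 and 22 in the MEFs. For all genes the share was between 7.27% and 10.2% in the clones and 4.72%, 2.32% and 12.3% in RF8, MG1.19 and B6 ES, and 6.10%, 7.03% and 5.14% in the MEFs. None of the 30 had peaks in the 4 clones and no ES line or the reverse. Of all 25095 genes 0.0837% and 0.0199% had these patterns, so none in 30 is near that share.

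Single germline promoters varied by line; genes here and in the groups that follow were in part named after their values were seen. Dazl, an RNA-binding protein of germ cells, and Dpep3 had promoter peaks in every sample, Dazl at 12.9 to 16.8 in the clones, 11.1 to 18.4 in the ES lines and 19.7 to 20.3 in the MEFs. Asz1, Hormad2, Sohlh2, Tuba3b and Wfdc15a had peaks in the 4 clones and B6 ES but in neither RF8 nor MG1.19. Asz1, of piRNA biogenesis, reached 38.6, 13.4, 22.5 and 22.0 in the clones and 35.2 in B6 ES. Ddx4, the germ cell helicase Vasa, had peaks in 967B2 (16.3), B6 ES (20.4) and the 3 MEFs, so 3 clones and 2 ES lines lacked a promoter peak.

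A part of the imprinted promoters had peaks in both groups. Imprinted genes lie in domains with methylation on the allele of 1 parent. It is in part set in the germ line and is not always at the gene's own promoter. Of 30 maternally methylated genes, 12, 13, 12 and 12 had a promoter peak in the clones, 13, 7 and 17 in RF8, MG1.19 and B6 ES, and 15 in each MEF. No peak was found in any of the 7 samples at 12 of the 30. Airn, Fkbp6, Nap1l5, Nnat, Peg3, Plagl1 and Zrsr1 had peaks in all 7 samples and in the 3 MEFs. Peg3, a zinc finger gene expressed from the paternal allele, had 11.1 to 15.3 in the clones and 11.1 to 20.6 in the ES lines. Peg10 and the neighbour Sgce, with 1 shared peak, and Mcts2 had peaks in all but MG1.19.

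Some promoters of genes listed as maternally methylated had peaks in the MEFs and none in the clones. Whether these peaks mark methylation set in the germ line was not tested. Igf2r, the mannose-6-phosphate receptor, had peaks of 18.28, 18.10 and 19.03 in the MEFs, 12.7 in RF8 and 16.1 in B6 ES, and none in any clone, at the promoter. Gnas had 10.9, 12.3 and 14.7 in the MEFs and 7.55 in B6 ES, and Mkrn3 11.8, 8.70 and 11.0 in the MEFs only. Of 9 paternally methylated genes, Igf2, at 10.2 to 14.0 in the clones, 12.4 to 12.9 in the ES lines and 6.30 to 7.68 in the MEFs, and Meg3 had promoter peaks in all 7. Meg3, a non-coding RNA of the Dlk1 domain, had 17.6, 13.0, 11.9 and 6.28 in the clones and 11.6, 12.3 and 8.29 in the ES lines. H19 had a promoter peak in 967B2 alone (5.83) and Dlk1 in no sample, though both had gene body peaks in all 7.

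In several other groups 967B2 had more promoter peaks than the other clones. The same held over all 10445 genes with CpG-rich promoters, at 8.16% in 967B2 against 2.12% to 2.98% in the other clones. There RF8, MG1.19 and B6 ES had 2.06%, 1.15% and 6.23%, and the MEFs 3.85% to 3.93%. The excess in 967B2 was thus not particular to the lists below. Of 26 endogenous pluripotency genes 5 had a promoter peak in 967B2 (Fgf4, Nodal, Tcl1, Trim28 and Utf1), 0 in each of the other clones, RF8 and MG1.19, 3 in B6 ES, and 4, 3 and 0 in the MEFs. Nanog had no peak in the gene in any clone or ES line, and 2, 1 and 0 in the MEFs. Of 41 early lineage regulators, 16 had one in 967B2 and 4 to 5 in the other clones, with 2, 1 and 7 in the ES lines and 6, 4 and 4 in the MEFs. Of 25 epithelial genes the numbers were 8, 1, 1 and 0 in the clones, 1, 0 and 4 in the ES lines and 3, 5 and 4 in the MEFs, and of 40 Hox genes 7, 0, 1 and 0, then 1, 0 and 3, then 5, 6 and 4.

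In the promoter window alone, some genes of these groups had peaks in the MEFs and not in the clones, or the reverse. Tead4, a trophectoderm factor, had 14.0 to 20.1 in the clones and 21.1 in B6 ES, with no promoter peak in RF8, MG1.19 or the MEFs. Gene body peaks of Tead4 were present in all 7 samples and in the 3 MEFs. Fap, fibroblast activation protein, had 28.4 to 31.5 in the clones, 12.8 in RF8 and 27.7 in B6 ES, and none in the MEFs. Cdx1 had 22.2 to 23.8 in the MEFs and 15.1 in B6 ES at the promoter. Each clone had gene body peaks at Cdx1, the highest at 22.9, 19.5, 23.1 and 22.4, so the contrast is limited to the window. Hoxa2, Hoxc10 and Gata2 had promoter peaks in the 3 MEFs and in no clone or ES line. Of 31 fibroblast and mesenchymal genes, 24 DNA methylation and demethylation genes, 9 Pax genes, 24 clustered protocadherin genes, 359 zinc finger genes and 319 vomeronasal receptor genes none had the 4 clones set against the 3 ES lines at the promoter. Of 1081 olfactory receptor genes 1 did, Olfr214. Over all 25095 genes the share was 0.0837% on the iPS side and 0.0199% on the ES side. These counts are near it and mark no list as particular.

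**Figure D5:**
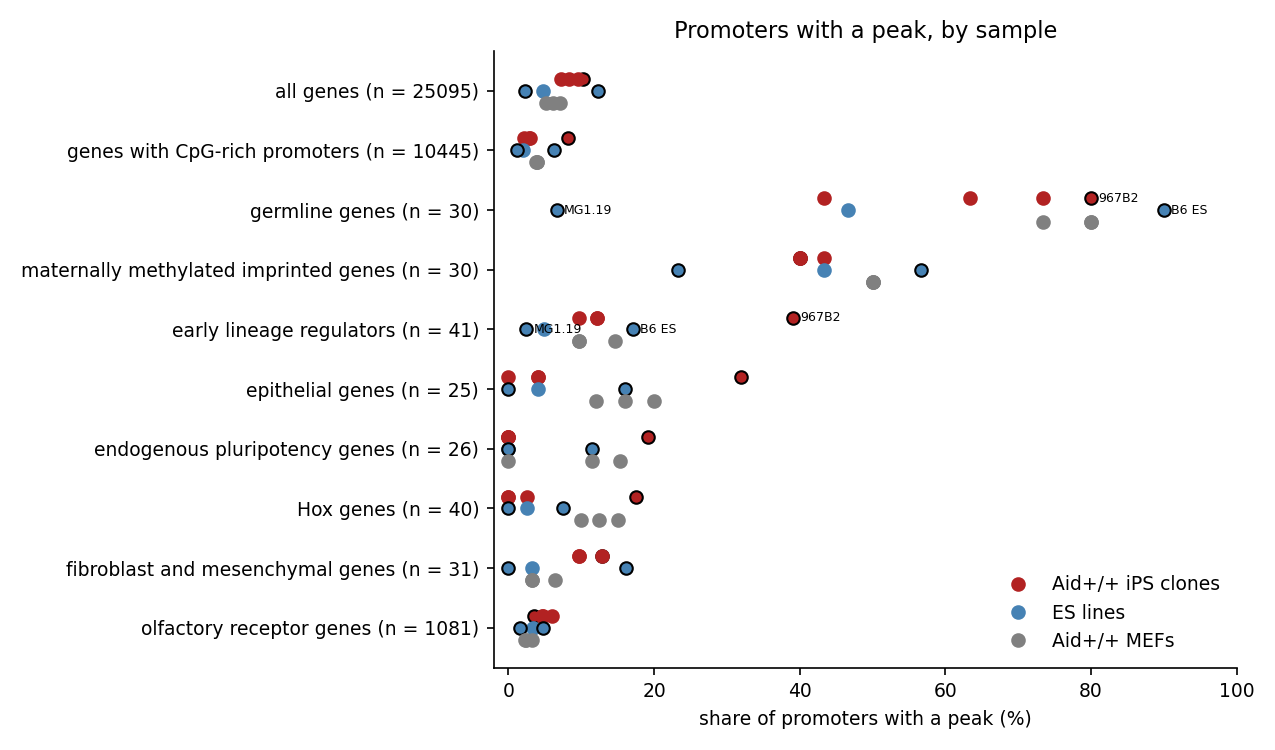
Share of promoters with a peak in percent (x axis) for all genes, genes with CpG-rich promoters and 8 fixed gene lists, with 1 point a sample for Aid+/+ iPS clones (red), ES lines (blue) and Aid+/+ MEFs (grey); black rims mark 967B2, MG1.19 and B6 ES. Germline genes range from 2 of 30 in MG1.19 to 27 of 30 in B6 ES. The clone 967B2 lies right of the other clones for all genes with CpG-rich promoters and for early lineage, epithelial, pluripotency and Hox genes.

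Where all 7 samples had a peak, the number of tags was compared in 22638 merged regions. The tags of a sample were those in its own peaks, so peak length enters the counts. edgeR's quasi-likelihood test with Benjamini-Hochberg adjustment called 3 regions with more tags in the ES lines (0.0133%) and 1 with fewer (0.00442%), and 2280 regions (10.1%) had an unadjusted p under 0.05. The median absolute log2 fold change was 0.28. Without B6 ES the numbers were 828 and 1523, on 22875 regions, and with the other samples left out in turn they were between 0 and 1.

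The region with the smallest p lay in an intron of Acnat1, an acyl-CoA N-acyltransferase, at chr4:49478983-49480505. It had a CPM (tags scaled to the TMM library size over the tested regions) of 15.9, 7.24, 4.96 and 10.2 in the clones and 78.8, 106 and 63.2 in RF8, MG1.19 and B6 ES, so the groups did not overlap. Its log2 fold change of ES over iPS was 3.09 ± 0.37 (SE, edgeR adjusted p = 0.0206). The call held in 5 of 10 alternatives and the sign in 10. The length under peaks in this region was 581 to 1249 bp in the clones and 1245 to 1381 bp in the ES lines. The MEFs had peaks there of 13.4, 14.5 and 14.8 fold enrichment.

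A second region, chr3:90930427-90932276, 35.7 kb from 9130204L05Rik, had a CPM of 5.28 to 9.69 in the clones and 32.9 to 44.9 in the ES lines (log2 fold change 2.38 ± 0.31, edgeR adjusted p = 0.0292). Another, in the protocadherin gamma cluster on chromosome 18, from 37880854 to 37882439, had 16.7 to 22.1 in the clones and 48.9 to 108 in the ES lines (2.21 ± 0.30, edgeR adjusted p = 0.0292). Both had peaks in the 3 MEFs. The region with fewer tags in the ES lines, chr3:6478110-6479114, between genes, had a CPM of 48.5 to 69.0 in the clones and 7.92 to 17.5 in the ES lines (log2 fold change -2.35 ± 0.33, edgeR adjusted p = 0.0394), and MEF peaks of 19.7, 15.8 and 8.64. The calls of these 3 regions held in 2 of 10, 4 of 11 and 2 of 10 alternatives in the order given, with the sign kept in each.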

How the data were processed

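MBD-seq libraries of 4 Aid+/+ iPS clones, 3 ES lines and 3 Aid+/+ MEFs were used. Captured, sonicated DNA was sequenced and the reads aligned to NCBI build 37 by the authors (BWA 0.5.9rc1 and CASAVA 1.8.1 per the submitters' notes, in which their roles are not given). The labels and the methods name different sequencers. The authors called peaks in each sample without a control library with MACS 1.4.1 (clones, MEF 2, MEF 3) or 1.4.0rc2 (ES lines, MEF 1), at p = 1e-05, with a 10 kb local background and at most 2 tags a position. The deposited peak lists give tag counts, 10 times the −log10 p (called the score) and a fold enrichment over the background, a ratio, for each peak. No signal outside peaks was used.

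Stretches under peaks shared by a group were intersected with a minimum overlap of 1 bp. Genes and exons (merged over transcripts) came from GENCODE on the same build, for 25095 autosomal genes, and GC and CpG from its sequence. Promoters ran from 1000 bp before to 500 bp after the gene start. CpG-poor promoters had no 500 bp window with a CpG ratio over 0.48. Sample means were compared with two-sided exact permutation tests. Tags in merged regions with a peak in all 7 samples were tested with edgeR 4.0.16 (quasi-likelihood, TMM, Benjamini-Hochberg at 0.05), with R 4.3.3, and the SE was taken from the fold change and the F statistic. Python 3.11.15, pandas 2.3.3, numpy 2.4.6 and scipy 1.17.1 did the rest. The scripts were tested on simulated data. Clones and lines are separate samples by the labels, and p-values measure the spread between them, though by their names the clones came from 2 derivation experiments with 2 clones each. Tag counts limit precision and repeated tags are not independent molecules. The median tag number of the tested regions was 40 to 133 a sample.

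The regions, gene lists and comparisons were chosen with earlier results of these data known. Named were the first 10 iPS and 5 ES DMRs of at least 100 bp whose merged region held no peak of the other group, ranked by the weakest carrying peak, the first 10 and 5 promoters likewise, regions called by edgeR, list genes with peaks in all of one group and none of the other, and Pou5f1, Sox2, Klf4, Myc, Nanog, Khdc3, Dlk1, Meg3, H19 and Dazl, of which Khdc3 was not matched by symbol. Alternatives were a stricter p, equal peak numbers, other promoter windows, merged regions, DESeq2 1.42.0, limma 3.58.1, other library sizes, a length offset, a tag filter and each sample left out.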

Additional observations from a re-analysis of the deposited data

Results flagged for a closer look

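Among 31 values tested in the group of 4 clones, a clone was set apart from the other 3 by its gap relative to the range in 13. For continuous values chance flags about 1 in 20 groups. That rate does not hold for counts of promoters in which the other 3 clones tie, where a difference of 1 is enough, as at the pluripotency, imprinted, Pax and vomeronasal receptor lists. The ES lines and MEFs, with 3 samples each, were not tested this way. The clone 967B2 stood apart in 11 of them. It had 28386827 total tags against 35696402 to 36919117 in the others, 2.61% of its summits in promoters against 1.60% to 1.64%, and 0.819% in CpG-rich promoters against 0.144% to 0.180%. It had peaks at 852 CpG-rich promoters against 221 to 311. By list it had peaks at 5 pluripotency promoters against 0, 8 epithelial against 0 to 1, 16 early lineage against 4 to 5, 1 Pax against 0, 7 Hox against 0 to 1, 14 zinc finger against 8 to 9, and 1 vomeronasal receptor promoter against 2. The clone 979B3 had a median fold enrichment of 14.65 against 15.9 to 16.0, and 967B4 had peaks at 13 maternally methylated imprinted promoters against 12. The lists overlap with the CpG-rich set and are not independent of it. The part of the lower share of repeated tags in 967B2 (44.0%) was not tested.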

How the results depend on the processing

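Differences in extent kept their sign under each alternative run. With the same number of most significant peaks taken from each sample, 31650, some differences of ES minus iPS turned: introns 1.63, intergenic DNA −0.879 and CpG-rich promoters 0.107 percentage points, and median CpG density −0.00304 per 100 bp. Leaving out 1 sample gave −0.413 to 0.0841 for promoters, −2.40 to 0.633 for exons, −0.369 to 4.57 for intergenic DNA, −0.0919 to 0.133 for CpG-rich promoters and −0.184 to 0.288 for GC. With equal peak numbers there were 679 iPS DMRs, 211 ES DMRs and 13774 CMRs. ES DMRs numbered 29 over merged regions and 28 with a peak limit of 1e-10 in all samples, and with that limit in the carrying samples alone there were 162 iPS and 14 ES DMRs. Leaving out 1 sample gave 1263 to 18083 iPS DMRs, 66 to 587 ES DMRs and 24464 to 41541 CMRs, the highest without B6 ES, MG1.19 and MG1.19. Promoter genes were 22 to 483 on the iPS side and 5 to 29 on the ES side. With windows of 2000 bp to each side they were 33 and 3, with the narrow window 20 and 2, with the 1e-10 limit 15 and 2, and with equal peak numbers 23 and 6. Of the 21 on the iPS side 17 were lost with the 1e-10 limit and also with equal peak numbers. Of the 15 named DMRs, those at Myc, Sox2 and Pou5f1 and those nearest to Ezh2, Snap91 and Gm13235 were present in all 13 alternatives, and the other 9, Klf4 included, were absent with equal peak numbers. The cause of these changes was not tested.

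Regions with more and fewer tags in the ES lines were 206 and 102 with DESeq2, 8 and 3 with a length offset, 0 and 0 with header library sizes (edgeR, 6194 at an unadjusted p under 0.05) and 0 and 0 with limma on fold enrichment (3594). With at least 50 tags on average edgeR called 0 with fewer (1931 at an unadjusted p under 0.05). Leaving out 1 sample, edgeR called 0 to 828 and 0 to 1523, with 1301 to 6589 at an unadjusted p under 0.05. Chosen after seeing the data, leaving out 967B2 and MG1.19 together gave 4841 iPS DMRs, 1145 ES DMRs, 44274 CMRs and 76 and 67 promoter genes. B6 ES as the only ES line gave 1842 iPS DMRs and 59793 CMRs. Among regions whose carrying peaks met the 1e-10 limit, 76.5% of iPS DMRs and 6.48% of CMRs had no MEF peak. Leaving out 1 MEF gave 88.3% to 94.4% of iPS DMRs, 33.3% to 41.7% of ES DMRs and 8.34% to 14.0% of CMRs. No paired analysis was possible because the replicate numbers of clones and ES lines were given in accession order and pair no samples.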
